A study of Xenopus laevis with 18 samples.

Results

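Whole Xenopus laevis embryos that made Gam1 were compared with water-injected embryos at early neurula, 16.5 h after fertilization. Gam1 is a protein of an avian adenovirus that triggers destruction of the enzyme that activates SUMO. Both groups are wild-type embryos as far as the labels say, injected at the one-cell stage. One group received 0.5 ng of Gam1 mRNA and the other 9.2 nL of water with no RNA, so an effect of Gam1 and one of injected RNA cannot be told apart. Each group had 3 arrays, each made from a pool of 20 embryos, which gives 6 of the 18 arrays of the study. The other 12 arrays hold the same pair of groups at early and late gastrula. All 3 Gam1 arrays were paired with the water array of the same replicate number, since biological replicates came from separate clutches of eggs. The p-values therefore rest on how the difference between Gam1 and water pools varied over the 3 pairs, with the spread moderated across probe sets.

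SUMO is a small protein that is attached to other proteins by an activating enzyme, a conjugating enzyme and a set of ligases, and removed by SENP proteases. Many of its targets are transcription factors and proteins of DNA repair. At early neurula the frog embryo has a neural plate flanked by prospective neural crest, somites and heart precursors are being laid down in the mesoderm, and ciliated cells and ionocytes are being specified in the epidermis.

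The arrays held RNA of several tissues of the embryo. In water embryos the log2 signal was 14.59 for the keratin gene krt12.4.S of the epidermis, 13.04 for the muscle actin gene actc1.L and 12.01 for sox2.L of the neural plate. It was 11.35 for sox17a.S of the endoderm, 9.99 for not.S of the notochord and 8.40 for snai2.L of the neural crest, while the globin gene hba3.L was low at 4.80. All arrays share a median of 7.72 and a range from 2.07 to 16.13. A value near 2.07 is at the floor of the scale, and a change against a group at the floor is only a lower limit of its size. In whole embryos, fewer cells of a type and less RNA per cell cannot be told apart.

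Differences between Gam1 and water embryos were many and ran in both directions, with larger sizes on the higher side. In the paired limma fit of 23630 probe sets, 2006 were lower (8.49%) and 2222 higher (9.4%) at an unadjusted p under 0.05, where 1181.5 in all would be expected at the nominal rate. Each of these 4228 probe sets had the same direction in all 3 pairs, which a p this low over 3 pairs requires. In 1729 of them the values of the groups did not overlap. Over all probe sets, without regard to p, 7.24% had groups apart on the lower and 5.54% on the higher side. Among the 4228 with an unadjusted p under 0.05, the median change on the log2 scale was -0.46 for the lower and 0.41 for the higher. Of the same 4228, 227 lower and 375 higher probe sets differed by more than 2-fold, and 1 and 53 by more than 8-fold.

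No probe set passed after adjustment over all 23630, where the smallest adjusted p was 0.094. When the 4464 probe sets with a mean under 4, many of them at the floor, were left out of the fit, 409 of the remaining 19166 passed (2.13%). Of these, 132 were lower (0.689%) and 277 higher (1.45%), with median log2 changes of -0.90 and 1.64. The filter uses the mean of all 6 arrays, so 38 of the higher ones with a water mean under 4 and 6 of the lower ones with a Gam1 mean under 4 entered only through the group where they were high. All 409 had the same direction in all 3 pairs, which again follows from the call itself. In 319 of them the groups did not overlap. Adjusted p-values given below come from this second fit, and "passed" refers to it. The plot of change against p shows that the higher side reached farther.

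**Figure D1:**
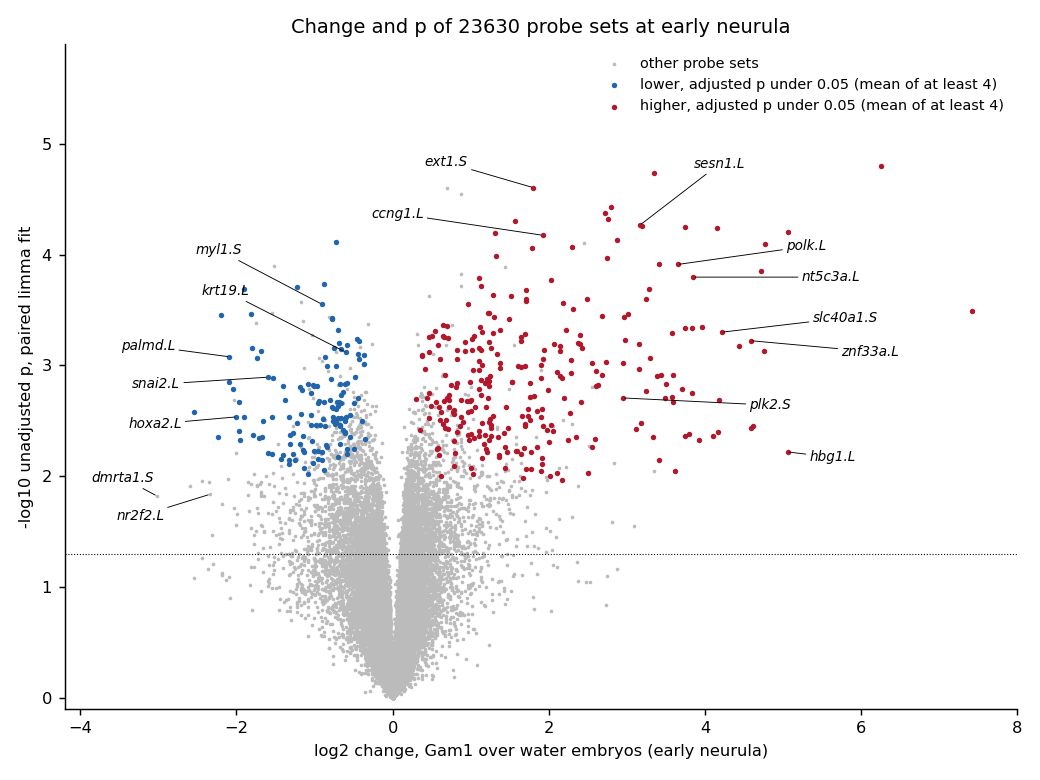
Log2 change of Gam1 over water embryos at early neurula (horizontal) against -log10 of the unadjusted p of the paired limma fit (vertical) for 23630 probe sets. Blue and red points are the 132 lower and 277 higher probe sets with an adjusted p under 0.05 among those with a mean of at least 4. The dotted line marks an unadjusted p of 0.05, and the highest change reaches 7.42 while the lowest is -3.02.

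X. laevis carries many genes as a pair of copies, written with .L and .S after the symbol, and the brightest probe set stands for each copy here. Probe sets with 1 symbol stood for 9149 gene copies. Of these copies 789 were lower (8.62%) and 982 higher (10.7%) at an unadjusted p under 0.05, and 53 lower (0.654%) and 82 higher (1.01%) passed. Both directions together, 1.66% passed. The median change of all gene copies was 0.00, and 22.8% were lower and 26.1% higher in all 3 pairs. The groups did not overlap for 6.78% on the lower and 5.84% on the higher side. At late gastrula 8.19% were lower and 7.36% higher at an unadjusted p under 0.05. The gene lists below are read beside these shares.

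Several known targets of p53, the transcription factor activated by DNA damage and other stress, were among the higher genes. Of 39 copies on a list of p53 targets and stress kinases 14 were higher (35.9%) and 6 lower (15.4%) at an unadjusted p under 0.05, and 6 higher copies passed. Both shares exceed those of all gene copies, 10.7% higher and 8.62% lower. Changes on the list ran from -1.25 to 3.17. The sestrin gene sesn1.L, which restrains growth signaling under stress, stood at 7.68, 6.86 and 7.20 in the 3 water arrays and at 10.90, 10.27 and 10.10 in the Gam1 arrays. Every Gam1 array lay above every water array, and the change was 3.17 ± 0.13 (SE, n = 3 pairs, adjusted p = 0.00217). Cyclin G1 had signals of 12.18, 11.28 and 11.51 in water and 13.90, 13.31 and 13.53 in Gam1 embryos on ccng1.L. The groups were apart again (1.92 ± 0.08, adjusted p = 0.00217), and the other copy, ccng1.S, had a change of 2.38 ± 0.20 (adjusted p = 0.00658).

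The polo-like kinase gene plk2, which is induced by p53 and by stress, had very even values of 6.58, 6.49 and 6.64 on plk2.S in water embryos. In Gam1 embryos it read 10.35, 9.29 and 8.91 (change 2.95 ± 0.34, adjusted p = 0.0128), and plk2.L had a change of 1.91 ± 0.34 (adjusted p = 0.0412). The nuclease gene aen.L, which acts in p53-dependent cell death, was higher by 1.34 ± 0.12 (adjusted p = 0.0112). Other members of the list did not pass, and some went the other way. The cell cycle inhibitor gene cdkn1a.L was at the floor in water embryos and read 4.38, 3.01 and 2.16 in Gam1 embryos (unadjusted p = 0.105), and gadd45a.S had a change of 0.01 ± 0.10. The cell death gene bax.S, named after its values were seen, was lower in all 3 pairs with a change of -0.58 ± 0.14 (unadjusted p = 0.0198, adjusted p = 0.0944).

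DNA repair genes split into a few large differences and a list with a median near zero. Its 54 copies had a median change of 0.03, with 5 higher and 2 lower at an unadjusted p under 0.05, but 4 of the 5 passed. DNA polymerase kappa, which copies across damaged bases, read 5.80, 5.39 and 4.65 on polk.L in water and 9.53, 8.66 and 8.61 in Gam1 embryos. The groups were widely apart (3.65 ± 0.19, adjusted p = 0.00232), though the second, dimmer probe set of polk.L gave 0.43 (unadjusted p = 0.248). That probe set had a water mean of 2.21, near the floor. Ligase IV, which seals double-strand breaks, had 7.34, 6.95 and 6.88 against 9.10, 8.76 and 8.43 on lig4.L (1.71 ± 0.10, adjusted p = 0.00658). The ubiquitin ligase gene rnf168.L of break signaling was higher by 1.23 ± 0.09 (adjusted p = 0.00884) and the glycosylase gene ogg1.L, which removes oxidized guanine, by 2.15 ± 0.19 (adjusted p = 0.0109). The polymerase gene parp3.L, which acts at strand breaks and was not on this list, was higher by 3.75 ± 0.28 (adjusted p = 0.00563).

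**Figure D2:**
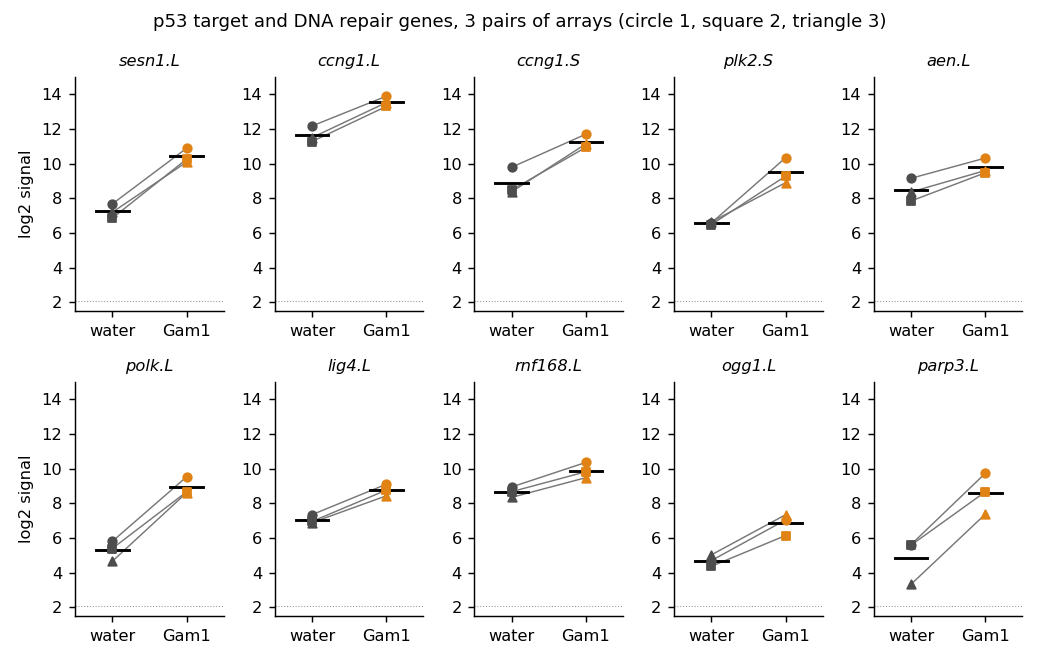
Log2 signal of 10 gene copies of p53 targets and DNA repair in the 3 water and 3 Gam1 arrays at early neurula. Grey lines join the arrays of a replicate number, black bars are group means and the dotted line is the floor at 2.07. In each panel the 3 Gam1 points lie above the 3 water points.

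Among the other gene copies with the smallest p on the higher side were enzymes and transporters of varied function. The nucleotidase gene nt5c3a.L, whose enzyme acts on pyrimidine nucleotides, read 7.37, 6.41 and 5.08 in water and 11.65, 9.78 and 8.99 in Gam1 embryos. The difference was similar in the 3 pairs although the level differed between clutches (3.85 ± 0.21, adjusted p = 0.00234). The mitochondrial thymidine kinase gene tk2.S was higher by 0.96 ± 0.06 (adjusted p = 0.00929) and the complex I gene ndufa8.L by 1.32 ± 0.06 (adjusted p = 0.00563). The zinc finger gene znf33a.L had a large change from a low level, with 3.44, 3.43 and 5.11 against 8.55, 8.43 and 8.77 (4.59 ± 0.38). Its water mean of 3.99 is under the filter, and its adjusted p over all probe sets was 0.134.

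Some of these calls rest on 1 of several probe sets. The heparan sulfate enzyme gene ext1.S had the smallest p of the copies named by p, with 9.34, 9.58 and 9.35 in water and 11.22, 11.27 and 11.16 in Gam1 embryos (1.80 ± 0.06, adjusted p = 0.00217). Its other 3 probe sets gave 0.77, -0.06 and 1.07, none with an unadjusted p under 0.05. The transcription factor gene nfe2l1.S, known for inducing proteasome genes, had 1.30 ± 0.09 (adjusted p = 0.00703) on its brightest probe set but 0.00 and 0.10 on the others. The last of these had a water mean of 2.26, near the floor. For the GTPase gene rnd1.L the values were 1.26 ± 0.11 (adjusted p = 0.00658) and 0.13. Probe sets of sesn1.L (3.17 and 2.68), ccng1.S (2.38, 2.55 and 2.19), riok3.L (1.12 and 1.10) and c9.L (3.58 and 4.59) gave like values.

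Iron, heme and blood genes included the changes that started from the floor. The iron exporter gene slc40a1.S read 2.12, 2.09 and 2.54 in water and 7.17, 5.89 and 6.33 in Gam1 embryos (4.22 ± 0.33, adjusted p = 0.134 over all probe sets). The globin gene hbg1.L was at 2.35, 2.07 and 2.07 in water and at 9.21, 5.18 and 7.29 in Gam1 embryos (5.06 ± 0.83, adjusted p = 0.205 over all probe sets). Both sizes are lower limits, and both genes entered the filtered fit only through their Gam1 arrays. The embryonic globin gene hba-l5.L, with a water mean of 12.43, differed by 0.46 ± 0.10 (adjusted p = 0.0705). The blood and endothelium list as a whole did not lean higher. Its 25 copies held 5 lower (20%) and 3 higher (12%) at an unadjusted p under 0.05, with a median of -0.13. Both copies of the transcription factor gene ets1 were lower in all 3 pairs and did not pass. Their changes were -0.64 ± 0.11 for ets1.L and -0.79 ± 0.19 for ets1.S (adjusted p = 0.0638 and 0.0912). Of 44 copies of iron, heme and redox genes 10 were higher and 3 lower at an unadjusted p under 0.05, with a median of 0.18. The glutathione peroxidase gene gpx4.S, which protects membranes from lipid peroxides, differed by 0.36 ± 0.06 and its other copy gpx4.L by 0.26 ± 0.06, both higher in all 3 pairs (adjusted p = 0.0826 and 0.123).

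Complement and innate immune genes held more higher than lower copies, and 6 copies had a mean under 4. Of 20 copies 7 were higher and 2 lower at an unadjusted p under 0.05. The list median was 0.06 over all copies and 0.94 over those with a mean of at least 4. The complement gene c9.L, whose protein forms the membrane attack complex, read 7.34, 6.74 and 5.59 in water and 11.41, 10.51 and 8.48 in Gam1 embryos (3.58 ± 0.28, adjusted p = 0.00567). The inhibitor of NF-kappaB gene nfkbia.S was higher by 1.03 ± 0.10 (adjusted p = 0.0211). Its brighter other copy nfkbia.L, with a water mean of 11.04, had a change of 0.10 ± 0.06 (unadjusted p = 0.171). Complement factor B, cfb.L, and both copies of the interferon regulatory factor gene irf1 were higher in all 3 pairs, by 1.36 ± 0.30 for cfb.L, 1.56 ± 0.31 for irf1.L and 1.69 ± 0.45 for irf1.S, and did not pass (adjusted p = 0.0675, 0.0645 and 0.0914).

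The SUMO pathway itself showed little difference in mRNA. At an unadjusted p under 0.05, its 26 copies held 1 higher and 2 lower ones, shares of 3.85% and 7.69%, and the median was 0.00. The E1 subunit gene sae1.L, whose protein Gam1 removes, had a change of 0.05 ± 0.05, and uba2.L of the other subunit one of 0.11 ± 0.05. For SUMO itself, the differences were 0.00 ± 0.04 for sumo2.L, 0.02 ± 0.03 for sumo2.S and 0.11 ± 0.06 for sumo3.L. The exception that passed was the SUMO ligase gene znf451.L, with 12.75, 13.08 and 12.57 in water and 13.85, 13.85 and 13.10 in Gam1 embryos (0.80 ± 0.13, adjusted p = 0.0358). A second probe set of znf451.L gave 0.77 and its dimmest one -0.19. The SENP protease genes senp1.S (-0.47 ± 0.11) and senp5.L (-0.17 ± 0.04) were lower in all 3 pairs and did not pass (adjusted p = 0.138 and 0.221).

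On the lower side, Hox genes, which set position along the body axis, stood out as a family. Of 18 copies 16 were lower in all 3 pairs and 13 had an unadjusted p under 0.05, with none higher. The median change was -1.25 for the 5 copies of groups 1 to 5, which mark the hindbrain and anterior trunk, and -0.63 for the 13 copies of groups 6 to 13 of more posterior levels. The hindbrain gene hoxa2.L read 5.13, 5.12 and 6.62 in water and 2.49, 3.34 and 5.05 in Gam1 embryos. The group with Gam1 lay below in every pair and did not overlap the water group (-2.0 ± 0.26, adjusted p = 0.0327, or 0.191 over all probe sets, since its Gam1 mean of 3.63 is under the filter), and its other copy hoxa2.S had a change of -1.25 ± 0.37 (adjusted p = 0.112). Also passing were hoxb2.S, with 6.45, 5.75 and 6.93 against 3.98, 3.61 and 5.67 (-1.96 ± 0.30, adjusted p = 0.0366), and hoxc5.L (-0.89 ± 0.12, adjusted p = 0.0301), for which all 3 probe sets lay between -1.02 and -0.87.

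Of the posterior group, hoxa7.L, hoxb7.L and hoxc8.S had changes of -0.56 ± 0.08, -1.68 ± 0.34 and -0.63 ± 0.13 and did not pass (adjusted p = 0.0528, 0.0564 and 0.0913). The size differed by clutch, with a larger fall in pair 1 than in pair 2 for 17 of the 18 copies. The pair medians of the first group were -2.08, -0.60 and -1.19. At late gastrula all 18 copies were lower too, with a median of -1.03 and 9 at an unadjusted p under 0.05. Tests of the stage difference did not pass for any copy (adjusted p of 0.772 or more), and unadjusted p-values under 0.05 went both ways, a lower change at early neurula than at late gastrula for hoxa2.L, hoxb2.S and hoxa11.S and a higher one for hoxa7.L, hoxc8.S and hoxc6.S.

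**Figure D3:**
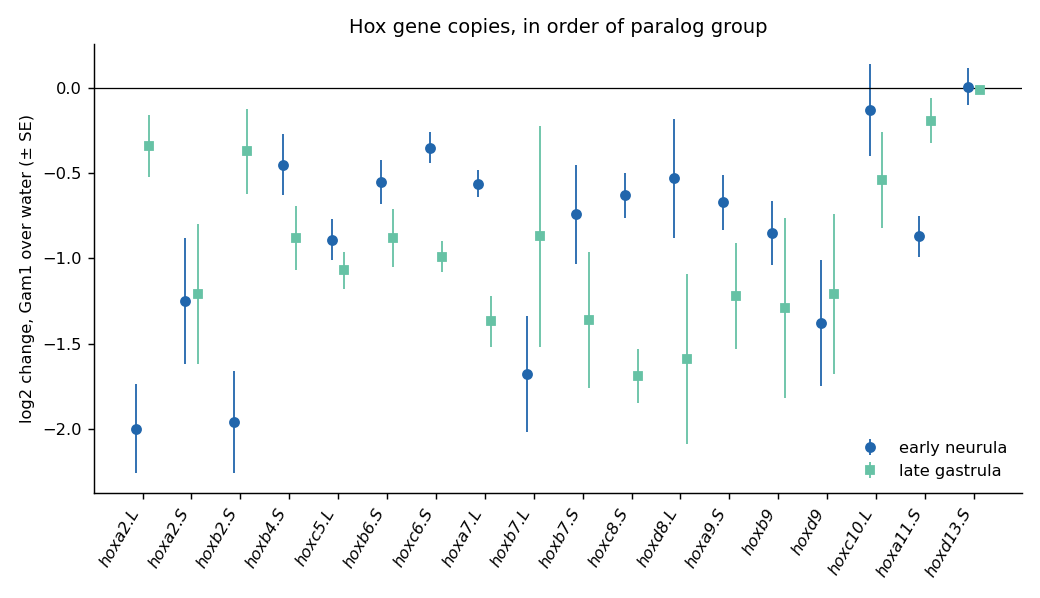
Log2 change of Gam1 over water embryos for 18 Hox gene copies in order of paralog group, at early neurula (circles) and late gastrula (squares), with bars of 1 SE from the paired fit of each stage (n = 3 pairs). At early neurula 17 of the copies lie below zero.

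The forming brain and neural plate showed lower signals over most of their genes. Of 22 eye field and forebrain copies 16 were lower in all 3 pairs and 7 had an unadjusted p under 0.05 on the lower side (31.8%), with a median of -0.60. For midbrain and hindbrain genes 8 of 14 copies were lower (57.1%) and none higher, with a median of -0.44 that was -0.26 without pair 1, and of 35 neural plate and proneural copies 11 were lower (31.4%) and none higher, with a median of -0.30. The retinoic acid degrading enzyme gene cyp26c1.S of the hindbrain read 10.17, 9.72 and 10.31 in water and 8.55, 9.06 and 9.57 in Gam1 embryos (-1.0 ± 0.24, adjusted p = 0.0774). Its other probe sets gave -1.27 and -2.03. The Iroquois genes irx3.L, irx1.S and irx1.L, which pattern the posterior brain, had changes of -0.70 ± 0.17, -0.78 ± 0.21 and -0.45 ± 0.13 and did not pass.

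The zinc finger gene zic5.S, which acts in neural plate and crest formation, was the 1 neural plate copy that passed, with 8.07, 7.29 and 8.29 in water and 6.32, 6.34 and 7.24 in Gam1 embryos (-1.25 ± 0.22, adjusted p = 0.0479). General markers of the plate had changes of -0.16 ± 0.06 for sox3.L, -0.01 ± 0.04 for sox3.S and -0.38 ± 0.23 for sox2.L, none with an unadjusted p under 0.05. The plate marker ncam1.S was lower by more, from -1.64 to -0.67 over the paired fit and its alternatives (unadjusted p = 0.0663 in the paired fit). For sox2.L the remaining probe sets read -0.41 and -0.26. The neural genes sox11.S (-0.22 ± 0.04, adjusted p = 0.104) and sall1.L (-0.20 ± 0.04, adjusted p = 0.144) were lower in all 3 pairs and did not pass. One forebrain gene went the other way. The LIM homeobox gene lhx5.S read 7.31, 7.76 and 6.45 in water and 8.97, 8.79 and 7.52 in Gam1 embryos (1.26 ± 0.18, adjusted p = 0.0327). At late gastrula its change was -0.17, with means of 10.23 in water and 10.06 in Gam1 embryos. Its early neurula means of 7.17 and 8.43 were below these in both groups, and less so in Gam1 embryos. The difference between stages of 1.42 ± 0.19 had an adjusted p of 0.355. The doublesex-related gene dmrta1.S had the lowest change of all gene copies at -3.02 ± 0.67, from 6.02, 6.58 and 8.17 in water to 2.18, 2.66 and 6.87 in Gam1 embryos, and in pair 3 it was well above the floor in both groups (adjusted p = 0.0623).

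Neural crest genes were lower as a group. Of 38 copies 18 were lower (47.4%) and 2 higher at an unadjusted p under 0.05, with a median of -0.33. The transcription factor gene snai2, which marks the premigratory crest, read 8.80, 7.32 and 9.07 on snai2.L in water and 7.42, 5.37 and 7.60 in Gam1 embryos. Clutch 2 was low in both groups, so the groups overlapped while the pairs differed evenly (-1.60 ± 0.16, adjusted p = 0.014). The copy snai2.S had a change of -0.97 ± 0.15 (adjusted p = 0.0609). Both copies of foxd3 (-0.74 ± 0.12 for foxd3.S, -0.54 ± 0.18 for foxd3.L) and of sox9 (-0.99 ± 0.22 for sox9.S, -0.58 ± 0.13 for sox9.L) were lower in all 3 pairs and did not pass. Of 19 placodal copies 4 were lower and none higher, with tbx1.L at -1.01 ± 0.20 and foxi2.L at -1.08 ± 0.33 (adjusted p = 0.0782 and 0.131).

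Somite and muscle genes gave 21 of 46 copies lower (45.7%) and 3 higher at an unadjusted p under 0.05, a median of -0.39, and 4 that passed. Myosin light chain, a part of the contractile fiber, read 9.72, 8.68 and 10.44 on myl1.S in water and 8.87, 7.77 and 9.45 in Gam1 embryos. The clutches differed more than the treatments, and the 3 pair differences were nearly equal (-0.91 ± 0.06, adjusted p = 0.0145). The other copy myl1.L (-0.44 ± 0.04, adjusted p = 0.0374), the actin gene actc1.L (-0.63 ± 0.07, adjusted p = 0.0186) and ripply2.2.S, which helps set somite boundaries (-0.48 ± 0.05, adjusted p = 0.0412), passed as well. The myogenic factor genes were lower in all 3 pairs by like amounts and did not pass, with -0.40 ± 0.06 for myod1.L, -0.39 ± 0.09 for myod1.S and -0.44 ± 0.14 for myf5.L (adjusted p = 0.0971, 0.113 and 0.128).

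Heart and lateral plate genes had a median of -0.46, with 18 of 47 copies lower (38.3%) and 2 higher at an unadjusted p under 0.05. The 1 that passed was actc1.L, which is also a somite gene. The basic helix-loop-helix gene hand1.L of lateral mesoderm read 7.30, 6.65 and 8.15 in water and 3.83, 5.29 and 6.42 in Gam1 embryos, without overlap (-2.19 ± 0.51, adjusted p = 0.0694). The nuclear receptor gene nr2f2.L, a regulator of venous and atrial fate that was not on this list, had 7.65, 6.20 and 8.17 against 4.15, 3.95 and 6.91 (-2.34 ± 0.51, adjusted p = 0.0613). The cardiac GATA factor genes were lower in all 3 pairs, with -0.54 ± 0.07 for gata5.L, -0.56 ± 0.16 for gata5.S, -0.31 ± 0.06 for gata6.L and -0.61 ± 0.11 for gata6.S (adjusted p = 0.0521, 0.131, 0.0929 and 0.0564). In axial mesoderm and its neighbors, the cartilage and notochord collagen gene col2a1.L had a change of -0.97 ± 0.11 and passed (adjusted p = 0.0278), while the notochord genes not.L (0.11 ± 0.11), tbxt.S (0.26 ± 0.07) and shh.L (-0.13 ± 0.07) did not.

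Endoderm and liver genes differed in both directions, with 8 of 34 copies lower (23.5%) and 6 higher (17.6%) at an unadjusted p under 0.05 and a median of 0.05. The gata5 and gata6 copies above are among the lower ones. Changes were -0.05 ± 0.08 for sox17a.L, 0.05 ± 0.13 for sox17b.1.S and 0.05 ± 0.06 for foxa2.L, whose second probe set gave -0.44, and darmin.L, an endodermal peptidase gene, was the 1 that passed (-0.88 ± 0.16, adjusted p = 0.0496).

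The epidermal list had a median of -0.10, with 13 of its copies above zero. Of 44 copies 11 were lower (25%) and none higher at an unadjusted p under 0.05, and 4 passed. The epidermal regulator gene grhl3.S read 11.80, 11.75 and 11.65 in water and 11.30, 11.33 and 11.21 in Gam1 embryos (-0.45 ± 0.04, adjusted p = 0.0311). Keratins, the filament proteins of this layer, followed with krt19.L at -0.60 ± 0.05 (adjusted p = 0.0139), krt12.4.S at -0.61 ± 0.08 (adjusted p = 0.0211) and krt12.4.L at -0.50 ± 0.08 (adjusted p = 0.0335). The other copy krt19.S had a change of -0.24 ± 0.23 and was lower in 1 of the 3 pairs. These keratin signals are among the bright ones of the arrays. Another copy of the krt12 family, krt12.2.S, went the other way, from 0.05 to 0.98 over the paired fit and its alternatives (unadjusted p = 0.27 in the paired fit). For krt12.5.S this range was -0.30 to -0.22 (unadjusted p = 0.0107). The other copy of the regulator, grhl3.L, had a change of -0.10 ± 0.07, and tfap2a.L and tfap2a.S had -0.10 ± 0.09 and -0.07 ± 0.06. The tight junction gene cldn1.S read 10.28, 9.17 and 10.23 in water and 7.57, 7.54 and 9.13 in Gam1 embryos (-1.81 ± 0.37, adjusted p = 0.0537), short of the threshold.

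Multiciliated cells, which move fluid over the skin, and ionocytes, which transport ions, gave 20 of 27 copies lower in all 3 pairs and 7 at an unadjusted p under 0.05 (25.9%), with none higher and a median of -0.44. The tubulin gene tubb4b.S passed (-0.44 ± 0.05, adjusted p = 0.047) and tubb4b.L did not (-0.22 ± 0.05, adjusted p = 0.13). The carbonic anhydrase gene ca2.L of ionocytes read 7.77, 5.48 and 6.92 in water and 4.51, 2.64 and 5.70 in Gam1 embryos (-2.44 ± 0.49, adjusted p = 0.0539). At late gastrula ca2.L was at the floor in both groups (2.08 and 2.07), where no drop could be measured, and the difference between stages was -2.43 ± 0.53 (adjusted p = 0.772). A pair of anion exchanger genes of the pendrin family passed, slc26a4.3.S with 8.00, 5.69 and 7.87 against 5.63, 4.12 and 5.69 (-2.04 ± 0.22, adjusted p = 0.0154) and slc26a4l.L (-0.90 ± 0.15, adjusted p = 0.0477). Over all 170 solute carrier copies there was no lean to either side, with 19 lower and 18 higher and a median of 0.00.

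The largest change that passed among named lower copies belonged to palmdelphin, palmd.L, a gene with a role in muscle differentiation in the mouse. It read 7.43, 6.06 and 7.98 in water and 5.36, 4.29 and 5.57 in Gam1 embryos (-2.09 ± 0.19, adjusted p = 0.0107). At late gastrula palmd.L was at the floor in both groups (2.08 and 2.07), and the difference between stages was -2.08 ± 0.18 (adjusted p = 0.0943). Insulin-like growth factor 2, a growth signal of the embryo, was at 7.84, 7.28 and 8.25 in water and 5.71, 6.15 and 6.37 in Gam1 embryos on igf2.L, with no overlap (-1.71 ± 0.26, adjusted p = 0.0318). The copy igf2.S had a change of -1.03 ± 0.33 (adjusted p = 0.125). The monoamine transporter gene slc18a1.S (-0.75 ± 0.06, adjusted p = 0.0243) and the splicing kinase gene prpf4b.S (-0.67 ± 0.07, adjusted p = 0.0217) were also among the 15 with the smallest p. For klhl24.S (-0.43 ± 0.04, adjusted p = 0.0414) the call held on 1 of 3 probe sets, the others giving 0.15 and 0.03. Those others had water means of 3.56 and 3.02, under the filter, where a fall could hardly be measured.

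The medians of the signaling lists lay between -0.16 for Notch and 0.01 for BMP, Nodal and TGF-beta. For Wnt ligands, receptors and antagonists 10 of 44 copies were lower (22.7%) and 4 higher, with a median of -0.09 and none that passed. The receptor gene fzd10.S, expressed in the dorsal neural tube, had -0.66 ± 0.13 (adjusted p = 0.0666) and its other copy fzd10.L -0.61 ± 0.16. For FGF and ERK feedback 8 of 35 were lower (22.9%) and 1 higher, with fgfrl1.L at -0.68 ± 0.09 and pdgfra.L at -0.84 ± 0.16. Planar cell polarity genes, which steer convergent extension, gave 6 of 27 lower and 1 higher, with a median of -0.03. The ligand gene wnt11.S (-0.98 ± 0.18, adjusted p = 0.0662) and the core component gene prickle3.L (-0.53 ± 0.08, adjusted p = 0.185) had groups that did not overlap. The ligand gene wnt11b.L went the other way, from 0.06 to 0.27 over the paired fit and its alternatives (unadjusted p = 0.194 in the paired fit). Lower by less were daam1.S (-0.26 ± 0.05) and vangl2.S (-0.18 ± 0.06), and vangl2.L had -0.13 ± 0.07 (unadjusted p = 0.148). For BMP, Nodal and TGF-beta 9 of 65 were lower and 5 higher, and id2.S, a target of BMP signaling, passed (-0.60 ± 0.08, adjusted p = 0.0375). For Notch 6 of 20 were lower and 2 higher, with the hes5.1 copies going opposite ways at 0.24 ± 0.04 (hes5.1.L) and -0.70 ± 0.17 (hes5.1.S).

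Genes of general cell functions differed by small amounts that leaned the same way across a list. Mitochondrial respiratory chain genes gave 24 of 89 copies higher (27%) and 1 lower at an unadjusted p under 0.05, with a median of 0.11 and pair medians of 0.17, 0.11 and 0.10. Lysosome and autophagy genes gave 15 of 69 higher (21.7%) and none lower, with a median of 0.15, and proteasome genes 11 of 81 higher (13.6%) and none lower, with a median of 0.08 (0.05 without pair 1). For glycolysis and the citrate cycle 15 of 59 were higher (25.4%) and 5 lower. The pyruvate dehydrogenase gene pdha1.S (0.61 ± 0.08, adjusted p = 0.0426) and the glycolytic gene gapdh.L passed, the latter with 10.18, 10.90 and 10.95 in water and 11.92, 11.90 and 11.98 in Gam1 embryos (1.26 ± 0.19, adjusted p = 0.026). The other copy gapdh.S, with a water mean of 11.78, had a change of 0.01 ± 0.08. Maternal and germ plasm genes, deposited in the egg, gave 12 of 42 higher (28.6%) and none lower, with npm2.S at 0.33 ± 0.07 and npm2.L at 0.27 ± 0.06.

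Ribosome biogenesis genes leaned the other way. Of 66 copies 38 were lower in all 3 pairs and 17 had an unadjusted p under 0.05 (25.8%), with none higher and a median of -0.15. The nucleolar GTPase gene gnl2.L passed (-0.70 ± 0.12, adjusted p = 0.0475), and ubtf.L, for a factor of ribosomal RNA transcription, had -0.28 ± 0.05 (adjusted p = 0.079). Ribosomal protein genes were lower in all 3 pairs for 54 of 95 copies, with a median of -0.08 (-0.04 without pair 1) and 12 at an unadjusted p under 0.05. Translation factors (median -0.02), pre-mRNA splicing (-0.04), cell cycle and DNA replication (0.01) and the actin cytoskeleton (0.00) were near the median of all gene copies. Among 135 cell cycle copies 12 were lower and 8 higher (8.89% and 5.93%), and ccnd1.L, cyclin D1, had -0.34 ± 0.04 (adjusted p = 0.0536). Of 94 copies of chromatin regulators 8 were lower and 2 higher. The cohesin loader gene nipbl.S had -0.55 ± 0.12 on its brightest probe set, and its other 5 lay between -1.27 and -0.58.

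**Figure D4:**
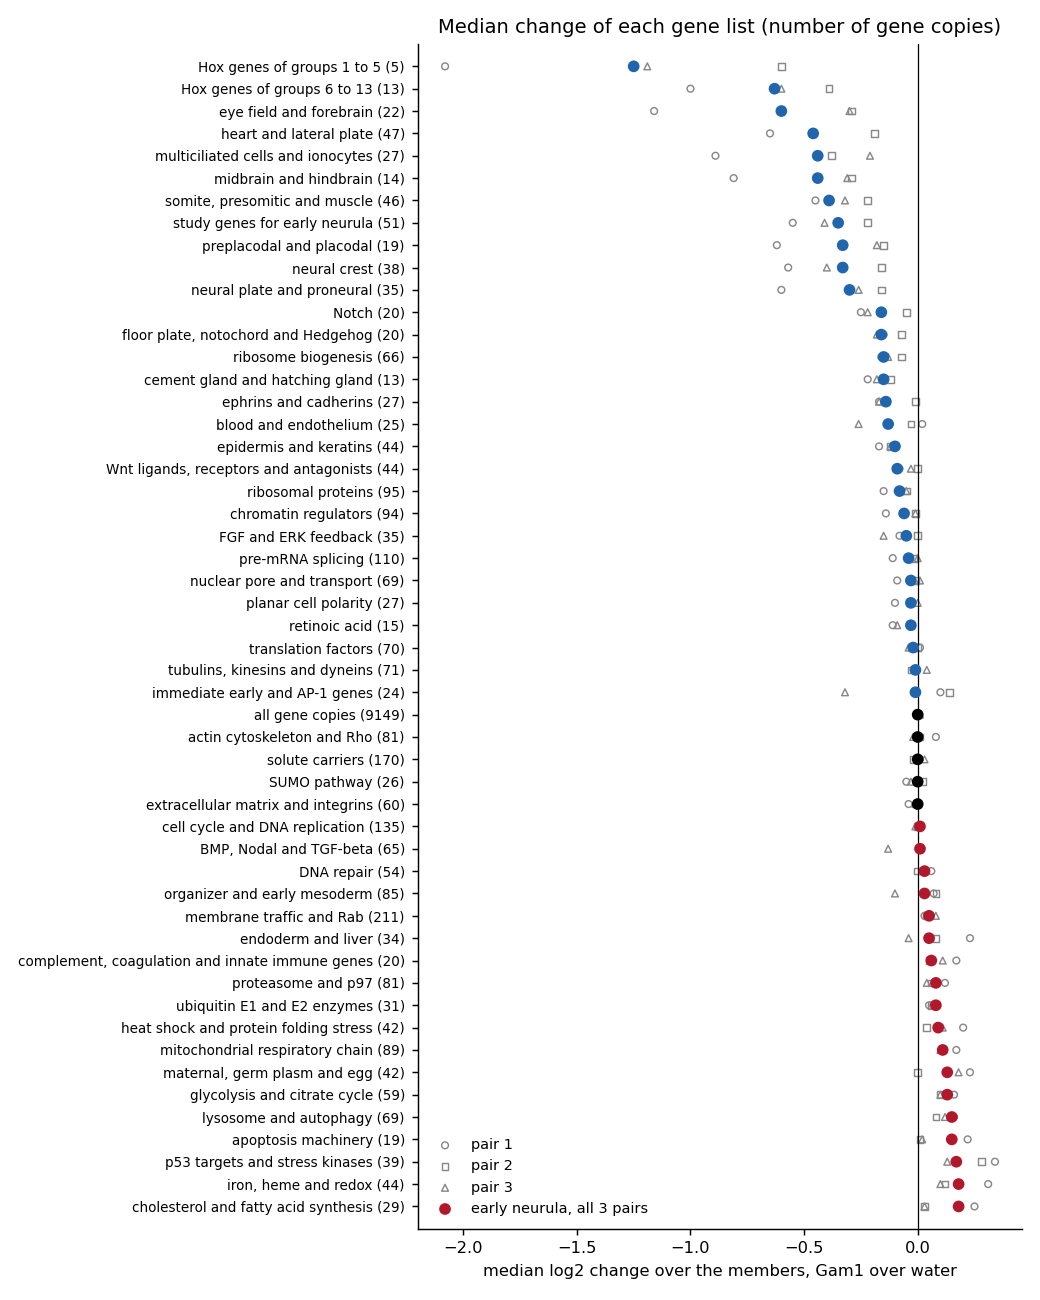
Median log2 change of Gam1 over water embryos at early neurula over the gene copies of each of 51 lists and of all gene copies (filled points), with the medians of the 3 single pairs (open symbols). Farthest to the left, down to -1.25, lie the Hox, brain, heart, multiciliated cell and ionocyte, muscle, study gene, crest and placodal lists. Pair 1 is farthest from zero in these, while the medians on the right reach at most 0.18.

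Of the genes the study discussed, some of them for other stages, 51 copies were measured. Of these 29 were lower (56.9%) and 3 higher at an unadjusted p under 0.05. Some were chosen by the study for their change on these arrays and others for their role or from earlier work, so the direction of the list is no independent evidence. Only igf2.L and both copies of ccng1 passed. Some went against the study's account. It gave Xbra (tbxt) as decreased at late gastrula and early neurula. Here tbxt.S was higher, from 0.18 to 0.31 over the paired fit and its alternatives (unadjusted p = 0.0244 in the paired fit). For tbxt.L this range was 0.07 to 0.21 (unadjusted p = 0.151). The study saw no change of snai1, while snai1.S was lower, from -0.42 to -0.20 (unadjusted p = 0.0428). Genes for which no difference was detectable at an unadjusted p under 0.05 included foxc1.L (-0.24 ± 0.13), both copies of tbx2 (-0.53 ± 0.27 for tbx2.L, -0.49 ± 0.25 for tbx2.S), rpl8.S (-0.12 ± 0.07) and xpo1.S (-0.04 ± 0.06). The study gave its fall of foxc1 for early gastrula and that of tbx2 for late gastrula, not for early neurula.

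The .L and .S copies of a gene were compared with each other. Of 1589 genes with both copies measured, 111 had an unadjusted p under 0.05 for each copy. Both were lower for 54 genes and both higher for 52, and 5 went opposite ways, among them hes5.1. In 211 genes only the .L copy and in 217 only the .S copy had such a p. Over all 1589 genes the copies had the same sign in 67.9%. Among the 539 genes with at least 1 such copy, they had the same sign in 418. Near-identical copies can bind the same probes, so the copies are not independent measurements.

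Probe sets with no gene symbol held the largest changes on the higher side. Higher by 7.42 ± 0.50 was Xl2.32009.1.S1_at, with 5.66, 2.76 and 2.51 in water and 11.79, 10.83 and 10.57 in Gam1 embryos (adjusted p = 0.00352). Its water mean of 3.64 is under the filter, and its adjusted p over all probe sets was 0.134. Higher by 6.25 ± 0.18 was Xl2.19235.1.A1_at (adjusted p = 0.00117). Of those that passed on the lower side, Xl2.15808.2.S1_at was lowest at -2.55 ± 0.32 (adjusted p = 0.0198). Only 180 of the 409 probe sets that passed carry a symbol, 69 lower and 111 higher.

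Genes that water embryos turn up during gastrulation made up more of the lower side. The probe sets were grouped by their change from early to late gastrula in water arrays that play no part in the early neurula comparison. Among 2555 probe sets that rose by over 2 on the log2 scale, 23.1% were lower at early neurula in Gam1 embryos and 7.55% higher at an unadjusted p under 0.05. Among the 2215 that rose by 1 to 2 the shares were 13.5% and 8.17%. Among the 13301 within 1 they were 6.12% and 10.1%, and among the 2369 that fell by over 2 they were 5.49% and 8.91%. The median water level was higher in the bins that rose, 9.30 in the first and 7.84 in the middle one, and the part of signal level in these shares was not tested. With the filter on low means, the first bin gave 23% and 7.57%.

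Most calls of early neurula had the same sign at late gastrula, which used other arrays of the same clutch numbers. Of the 277 higher probe sets that passed, 276 were higher at late gastrula and 234 had an unadjusted p under 0.05 there (background 6.55%), with a median of 1.12 at late gastrula and 0.08 at early gastrula. Of the 132 lower ones 127 were lower at late gastrula and 81 at an unadjusted p under 0.05 (background 7.76%), with medians of -0.76 and 0.01. At the unadjusted threshold 741 probe sets were lower at both stages, 36.9% of the early neurula and 40.4% of the late gastrula calls, and 762 were higher at both, 34.3% and 49.2%. Only 9 lower and 10 higher ones were called in the opposite direction at late gastrula. The difference between the stages itself, tested over 12 arrays, had an unadjusted p under 0.05 for 1225 probe sets and passed adjustment for 1, which lay near the floor.

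**Figure D5:**
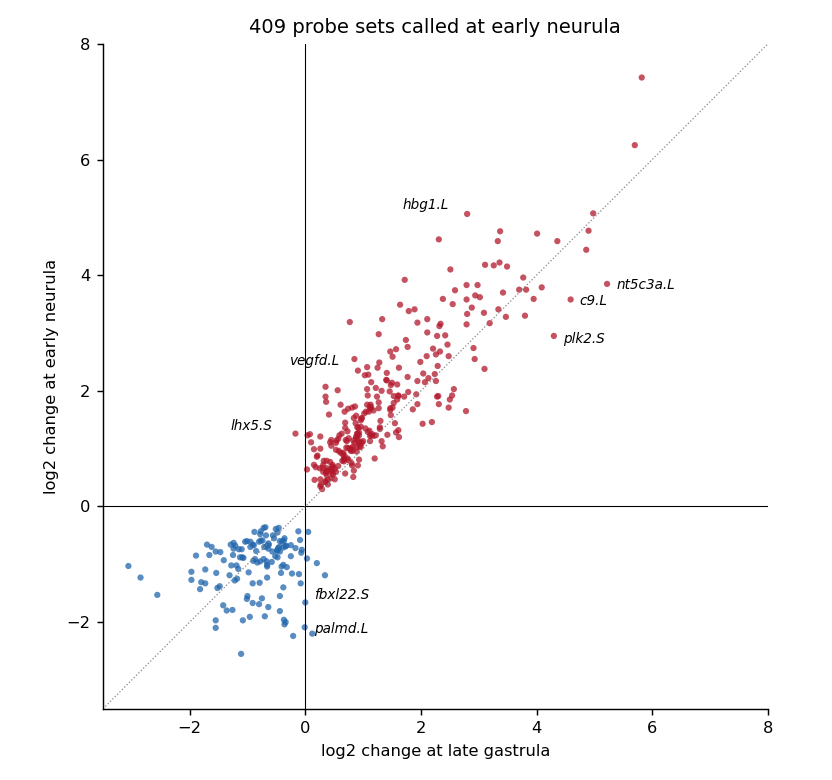
Log2 change of Gam1 over water embryos at late gastrula (horizontal) and early neurula (vertical) for the 409 probe sets that passed at early neurula. The dotted line marks equal changes. Of the red points 276 of 277 and of the blue points 127 of 132 have the same sign at both stages, and palmd.L lies at -0.01 and -2.09, with late gastrula values at the floor.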

How the data were processed

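Each of the 6 arrays measured RNA of a pool of whole embryos on the Affymetrix X. laevis array. The deposited values are log2 signals per probe set, which the authors read from the scanner files with Bioconductor and quantile-normalized over the 18 arrays. Background correction and probe summary: not given in the sources used here. After removal of 71 AFFX control probe sets, 23630 remained. The annotation table of the platform gave 1 symbol for 12258 probe sets, several for 228 and none for 11144.

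Gam1 and water arrays were compared with limma 3.58.1 in R 4.3.3 (lmFit and eBayes with a trend of spread with signal), with replicate number as a block and Benjamini-Hochberg adjustment at 0.05. Standard errors of changes come from this fit of all probe sets. A second fit kept the 19166 probe sets whose mean over the 6 arrays reached 4 and gave the adjusted p-values quoted for single genes. Adjusted p-values of stage differences came from a limma fit of 12 arrays with 6 blocks of stage and replicate number.

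Arrays with the same replicate number deviated together from their group means (r of 0.686, 0.808 and 0.738 over probe sets, against -0.445 to -0.307 for different numbers), and the study ties replicates to egg clutches, so the numbers pair the arrays. The fit was tested on simulated data, and the number of arrays limits the precision.

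The members, the 51 gene lists and the tests were chosen with earlier results of these data known. Of several probe sets for a copy, the brightest on average was used. Genes to name were drawn by a rule, and not all that met it are described above. It took the 15 lower and 15 higher copies with the smallest p among those with a group mean of at least 5 and the same direction in all pairs. It also took the 10 per direction with the largest change among those with an unadjusted p under 0.05 and a group mean of at least 7. Examples not described are rcor2.L, tmem221.S and ankrd11.L, all lower, which did not pass (adjusted p = 0.0504, 0.0525 and 0.0565). Others are XB5947741.L, lower, and kmo.L, higher, which passed (adjusted p = 0.016 and 0.00722). To these were added the 4 members of each list with the smallest p and their other copies, the genes the study discussed, the SUMO pathway and tissue markers. Genes named outside this rule, plk2.L, cdkn1a.L, gadd45a.S, bax.S, hoxc6.S and slc26a4l.L, were chosen after their values were seen.

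Alternatives were no replicate block, all 18 arrays with and without stage weights, no trend, a robust shared spread, the methods' t-test, filters at means of 4 and 6, a second quantile normalization, median centring, the mean of all probe sets of a copy, and leaving out each replicate pair. A filter at a mean of 4 for the stage difference was chosen after seeing the data. Tables and plots were made in Python 3.11.15 with pandas 2.3.3, numpy 2.4.6 and matplotlib 3.10.9.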

Additional observations from a re-analysis of the deposited data

Results flagged for a closer look

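The Gam1 effect differed between late gastrula and early neurula after adjustment for 1 probe set, Xl2.26394.1.A1_at, which has no gene symbol. Its effect at early neurula exceeded that at late gastrula by 0.69 ± 0.03 on the log2 scale (limma over 12 arrays, adjusted p = 0.023). The signal was 2.13 in both groups at late gastrula and 2.23 in water against 2.92 in Gam1 embryos at early neurula, all near the floor of the scale. Without any 1 of the 3 replicate pairs it did not pass.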

How the results depend on the processing

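Of the counts at early neurula, those after adjustment depended most on the processing. They were 0 lower and 0 higher over all probe sets, 132 and 277 with a mean of at least 4, 126 and 237 with a mean of at least 6, 819 and 1071 with all 18 arrays and the replicate block, and 380 and 602 with stage weights added. At the unadjusted threshold the fit without the replicate block gave 762 lower and 812 higher, the methods' t-test 792 and 804, and all 18 arrays 3066 lower. Leaving out a replicate pair gave 1152 to 1522 lower and 1162 to 1487 higher unadjusted, the fewest without pair 2, and 0 adjusted. The difference between stages had 217 unadjusted calls without the replicate block, 687 without replicate pair 2 and up to 1496 without pair 1. Its adjusted calls dropped from 1 to 0 without any pair and with a mean of at least 4. The cause was not tested for any of these.

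Among 51 list medians, complement genes moved to 0.94 and 0.89 with means of at least 4 and 6, cement and hatching gland genes to -0.22 under both filters, and ubiquitin E1 and E2 genes to 0.05 with the mean of all probe sets. Without 1 replicate pair the medians ran from 0.02 to 0.17 for apoptosis, -0.15 to -0.07 for epidermis, -0.25 to -0.08 for cement and hatching gland, -0.10 to 0.00 for retinoic acid, -0.11 to -0.04 for Wnt, -0.03 to 0.00 for extracellular matrix, 0.05 to 0.10 for ubiquitin enzymes and 0.00 to 0.01 for the cell cycle. In all, 32 of the 51 medians moved by over 1.5 times or in sign when 1 pair was left out, 7 of them with a size of at least 0.1. Those not yet given were midbrain and hindbrain (-0.58 to -0.26), blood and endothelium (-0.23 to 0.01), ephrins and cadherins (-0.20 to -0.08), cholesterol and fatty acid synthesis (0.10 to 0.26) and maternal genes (0.12 to 0.22). Of the 232 named copies with an unadjusted p under 0.05, 0 changed sign under the alternatives run on single genes. These alternatives leave out the mean of all probe sets. Of the other 103 copies 26 changed sign, among them sumo2.L (-0.04 to 0.03). The 0 follows largely from the call, which requires the same direction in every pair, so leaving out a pair cannot turn the sign. Alternatives that alter only the estimate of spread keep the change itself. Neither the 0 nor its contrast with the 26 is therefore evidence of robustness. Genes at the floor have no measured fold, and probe sets of the same copy can disagree.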
